A study of Mus musculus with 6 samples.

Results

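The 7 genes followed here belong to fenestrated and lipid-absorbing capillaries and were measured in brain endothelium. They were chosen by name from the 23827 genes of the deposited table: Plvap, Gpihbp1, Cd36, Fabp4, Fabp5, Aqp1 and Lpl. All 7 were listed, each in a single row, and 6 reached a mean of 1 RPKM (reads scaled to transcript length and to the reads of the library) over the libraries and were tested. Fabp4 lay under that level. RNA on ribosomes of brain endothelial cells was obtained from mouse embryos of the C57BL/6 x 129/Sv background at E14.5 by TRAP (translating ribosome affinity purification), in which tagged ribosomes are captured from 1 cell type together with the RNA bound to them. The Axin1 overexpression group held 3 libraries from embryos with Axin1 and an IRES-LacZ reporter at the Rosa26 (R26) locus, and the wild-type group held 3 libraries. Mothers of both groups received tamoxifen at E12.5. Axin1 is a scaffold of the complex that degrades beta-catenin, so the comparison addresses what happens to these genes when Wnt/beta-catenin signalling is dampened. Not given in the sources used here are the recombinase, the line that carries the ribosome tag and the number of embryos behind a library.

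Capillaries of most organs take up lipid and small solutes across an endothelium rich in vesicles or fenestrae, whereas brain capillaries lose these features as the blood-brain barrier forms. In peripheral capillaries Gpihbp1 binds lipoprotein lipase (Lpl) on the luminal surface, Lpl frees fatty acids from triglyceride-rich lipoproteins, Cd36 takes fatty acids up and the Fabp proteins carry them inside the cell. Plvap forms the diaphragms that span fenestrae and vesicles and disappears from brain vessels during barrier formation. Aqp1 is a water channel of many peripheral endothelia that is also abundant in choroid plexus epithelium and red blood cells.

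Promoter sequences, 250 bases before to 50 after a transcript start, were taken from RefSeq (GRCm38.p6) for Cd36 and Aqp1, the members with an entry in that table. TCF/LEF factors are the DNA-binding partners of beta-catenin, and whether they act on either gene was not tested. The 2 windows lie at chr5:17835847-17836146 (minus strand) and chr6:55336049-55336348 (plus strand). Capitals mark the TCF/LEF letters CTTTGA or CTTTGT and AGGTCA, part of the site that PPAR receptors bind, on either strand.
Cd36: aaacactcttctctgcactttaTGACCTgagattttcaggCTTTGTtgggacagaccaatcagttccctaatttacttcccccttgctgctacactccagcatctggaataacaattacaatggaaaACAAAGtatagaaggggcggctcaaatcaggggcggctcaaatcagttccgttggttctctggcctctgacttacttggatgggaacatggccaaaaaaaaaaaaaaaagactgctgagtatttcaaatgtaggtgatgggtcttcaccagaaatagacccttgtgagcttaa
Aqp1: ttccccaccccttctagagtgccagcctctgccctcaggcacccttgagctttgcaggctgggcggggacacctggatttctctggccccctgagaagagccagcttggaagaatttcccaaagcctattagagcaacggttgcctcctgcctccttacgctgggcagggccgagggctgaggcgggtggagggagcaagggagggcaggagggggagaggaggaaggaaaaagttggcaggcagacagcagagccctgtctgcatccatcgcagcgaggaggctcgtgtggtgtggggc
The Cd36 row joins 5 transcripts, while a single start was taken here. Its window held 2 TCF/LEF matches, beginning at -210 and -123 from that start, and 1 AGGTCA match, beginning at -228. None of the matches overlapped. The Aqp1 window held 0 of either. Of all 32851 RefSeq promoter windows of this length, 31.2% held the TCF/LEF letters and 16.3% held AGGTCA, so matches of this kind are common.

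Library sizes, recovered from the deposited values, were between 21077809 and 37042475 reads with Axin1 overexpression and between 53523989 and 62507580 reads in wild type. Axin1 itself was measured at 37.8 ± 0.349 RPKM with Axin1 overexpression and 14.4 ± 0.798 RPKM in wild type (SD, n = 3 each), with no overlap. Of 12493 genes tested, 22.8% changed at a limma adjusted p under 0.05, with 14.4% higher and 8.37% lower with Axin1 overexpression. These are background rates for the members below. The balance depended on the scaling, with 1800 genes higher and 1046 lower as reported, 1248 higher and 1392 lower with the median of ratios, and 1117 higher and 1466 lower with the upper quartile. Every library column of the Axin1 group carries the tag RS216 and every wild-type column the tag RS148. What the tag stands for is not stated, and should it mark a batch, its effect and that of genotype cannot be told apart. In such pooled RNA a larger share of cells with a gene on and more RNA per cell cannot be told apart either. The libraries are called biological replicates in the labels, so p-values measure the spread between them. Log2 fold changes below are on log2(RPKM + 1), which compresses low values, unless voom is named.

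The diaphragm gene Plvap, the lipase anchor Gpihbp1, the fatty acid receptor Cd36 and the water channel Aqp1 rose with Axin1 overexpression, while the lipase Lpl and the carrier Fabp5 did not pass the test. Of the 6 tested members these 4 were higher and 0 lower, beside the background of 14.4% higher. The members were chosen with earlier results of these data known, so this count is not independent evidence. Cd36 reached the mean of 1 RPKM through the Axin1 group alone, so its place in this count is partly set by the filter. The untested Fabp4 had the highest ratio between the groups. Groups did not overlap for these 5 genes, all higher with Axin1 overexpression, where 28% of the genes tested were higher without overlap. Of the genes tested, 0.592% had a mean RPKM at least 2 times as high with Axin1 overexpression. Plvap, Gpihbp1, Cd36 and Aqp1 were among them, Aqp1 only just, at 2.01. Its log2 fold change of 0.83 came to 0.79 with the median of ratios and 0.78 with the upper quartile, so its place may depend on the scaling.

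**Figure D1:**
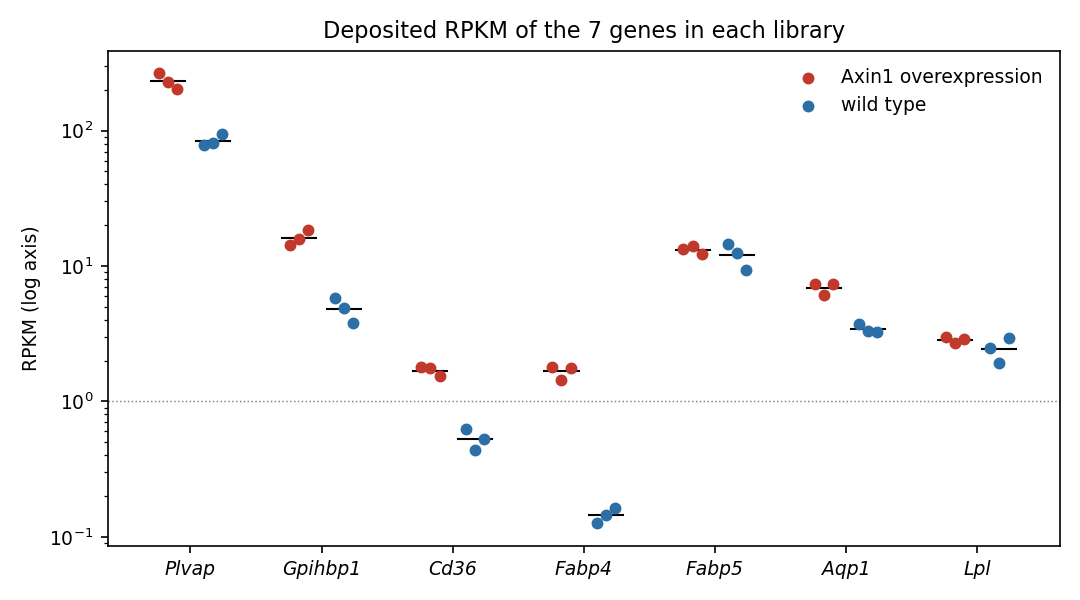
Deposited RPKM (log axis) of the 7 genes, with a point for each library, Axin1 overexpression in red and wild type in blue, a bar at each group mean and a dotted line at 1 RPKM. Fabp4 and Cd36 lay below 1 RPKM in every wild-type library and above it in every Axin1 library, and Fabp5 and Lpl overlapped between groups.

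Plvap, the structural protein of fenestral diaphragms, was at 265, 228 and 204 RPKM in Axin1 replicates 1 to 3, against 78.1, 80.6 and 94.4 RPKM in wild-type replicates 1 to 3. Even the lowest Axin1 library was 2.16 times the highest wild-type library. The mean was 232 ± 30.7 RPKM with Axin1 overexpression and 84.4 ± 8.81 RPKM in wild type (SD, n = 3 each), a ratio of 2.75 and a rise of 1.45 on the log2 scale (SE 0.11, limma adjusted p = 0.00016). Plvap was already an abundant transcript of wild-type brain endothelium, where 96.7% of listed genes had a lower mean, and it ranked 167 of all listed genes with Axin1 overexpression, against 784 in wild type. The reads behind it numbered 45122 over the Axin1 libraries and 29357 over the deeper wild-type libraries. By size of rise on the log2 scale it stood at place 19 of the 12493 genes tested.

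Gpihbp1, which anchors Lpl to the capillary surface, was at 14.3, 15.9 and 18.4 RPKM in the Axin1 libraries, against 5.8, 4.9 and 3.78 RPKM in wild type. The highest wild-type library stayed below every Axin1 library. It averaged 16.2 ± 2.03 RPKM with Axin1 overexpression and 4.83 ± 1.01 RPKM in wild type (SD, n = 3 each), a ratio of 3.36. On the log2(RPKM + 1) scale Gpihbp1 rose by 1.57 (SE 0.13, limma adjusted p = 0.000261), and with voom on the recovered reads by 1.75. The reads behind it lay between 309 and 470 with Axin1 overexpression and between 173 and 287 in wild type. It held place 14 among the genes tested by size of rise.

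Lpl, the enzyme that Gpihbp1 binds, was at 3, 2.71 and 2.87 RPKM in the Axin1 libraries, against 2.48, 1.92 and 2.93 RPKM in wild type. The groups overlapped, because wild-type replicate 3 lay within the range of the Axin1 libraries. The log2 fold change was 0.17 with a 95% interval of -0.06 to 0.41 (limma adjusted p = 0.247), so that Lpl was not called, which does not show that it stayed the same. Endothelial cells mostly receive this enzyme from neighbouring cells in peripheral tissue. The RPKM ratio of Gpihbp1 to Lpl within a library was 4.77, 5.88 and 6.41 with Axin1 overexpression, against 2.34, 2.55 and 1.29 in wild type. The log2 of this ratio differed by 1.52 between the groups (exact two-sided permutation test, p = 0.10, the smallest that 3 against 3 libraries allow).

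Cd36, a receptor for long-chain fatty acids, was at 1.79, 1.75 and 1.53 RPKM in the Axin1 libraries, against 0.624, 0.44 and 0.531 RPKM in wild type. It crossed 1 RPKM between the groups, with no overlap, and remained a low transcript. These values rested on 231, 229 and 114 reads in the Axin1 libraries and 137, 83 and 108 reads in wild type, rounded, since the row joins 5 transcripts and its recovered reads lay up to 0.065 from whole numbers. Cd36 averaged 1.69 ± 0.143 RPKM with Axin1 overexpression and 0.532 ± 0.0919 RPKM in wild type (SD, n = 3 each), a ratio of 3.18. On the log2(RPKM + 1) scale, which compresses low values, the fold change was 0.81 (SE 0.07, limma adjusted p = 0.000302). With the filter at a mean of 0.1 RPKM, which both groups exceeded, it was also 0.81 (adjusted p = 0.000446). On the recovered reads, with limma's voom, it was 1.69 (SE 0.15, adjusted p = 0.000193), in a fit that called 16.2% of genes higher.

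Fabp4, the fatty acid carrier of adipocytes, macrophages and peripheral capillary endothelium, was at 1.8, 1.43 and 1.77 RPKM in the Axin1 libraries, against 0.126, 0.146 and 0.163 RPKM in wild type. The lowest Axin1 library was 8.79 times the highest wild-type library. Read support was thin: 42, 34 and 24 reads in the Axin1 libraries and 5, 5 and 6 reads in wild type. Each wild-type library was above the 3 reads that a count of 0 allows, which came to between 0.0754 and 0.0878 RPKM for this transcript, with exact 95% Poisson intervals that ran from 0.0408 RPKM (lowest bound) to 0.355 RPKM (highest bound). In the Axin1 libraries these intervals ran from 0.992 to 2.64 RPKM. Intervals and floors cover counting error only.

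Summed over libraries, Fabp4 had 100 reads among 94469856 with Axin1 overexpression and 16 reads among 173833886 in wild type. The ratio of these shares was 11.5, with an exact 95% interval of 6.75 to 20.9 for counting error. Its mean over the 6 libraries was 0.907 RPKM, so it was left out of the tested set. With the filter lowered to a mean of 0.1 RPKM its log2 fold change was 1.22 (SE 0.07, limma adjusted p = 7.24e-05), where 11.3% of 15328 genes were higher. With no filter it was 1.22 (adjusted p = 0.00176), where 8.61% were, and voom on the recovered reads gave 3.42 (SE 0.31, adjusted p = 0.000166), where 13% were. The authors' deposited table gives Fabp4 a ratio of 0.0897 for wild type over Axin1 overexpression with an adjusted p of 6.65e-11. In that comparison of the authors, 3.91% of genes with reads were higher with Axin1 overexpression at an adjusted p under 0.05.

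Fabp5, the close relative of Fabp4 that many dividing and neural cells express, was at 13.29, 13.99 and 12.25 RPKM in the Axin1 libraries, against 14.55, 12.37 and 9.397 RPKM in wild type. The wild-type libraries spanned the whole Axin1 range. The log2 fold change was 0.13 with a 95% interval of -0.17 to 0.43 (limma adjusted p = 0.498). Its direction turned without wild-type replicate 3 (-0.03) and with GC content and transcript length corrected for (-0.07). Of the 50-base stretches of its reference transcript, 21.1% also occur in transcripts of 5 other genes, so its level is uncertain where reads could be split. The corresponding shares were 1.81% for Lpl and 0% for the other members, and 0 genes in the reference overlapped the exons of any member.

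Both carriers lie on chromosome 3, and the wild-type libraries held far more Fabp5 than Fabp4. The RPKM ratio of Fabp4 to Fabp5 was 0.135, 0.102 and 0.145 in the Axin1 libraries, against 0.00864, 0.0118 and 0.0173 in wild type. Fabp5 therefore remained the more abundant carrier per length in every library. The log2 ratio differed by 3.38 between the groups (exact two-sided permutation test, p = 0.10, the smallest possible).

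**Figure D2:**
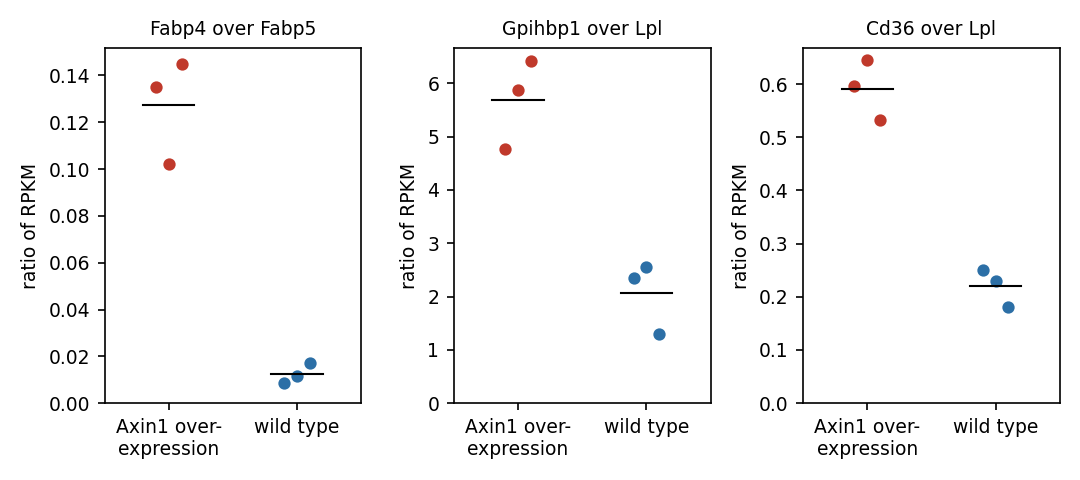
RPKM ratios between members within each library (points; bar at the group mean), with Axin1 overexpression left of wild type and axes that start at 0. Fabp4 over Fabp5 averaged 0.128 in Axin1 libraries and 0.0126 in wild type, Gpihbp1 over Lpl 5.69 in Axin1 libraries and 2.06 in wild type, and Cd36 over Lpl 0.591 in Axin1 libraries and 0.221 in wild type.

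Aqp1, the water channel, was at 7.3, 6.08 and 7.33 RPKM in the Axin1 libraries, against 3.74, 3.29 and 3.27 RPKM in wild type. The groups did not overlap, and the lowest Axin1 library was 1.63 times the highest wild-type one. Aqp1 averaged 6.91 ± 0.711 RPKM with Axin1 overexpression and 3.44 ± 0.266 RPKM in wild type (SD, n = 3 each), a ratio of 2.01. On the log2(RPKM + 1) scale Aqp1 rose by 0.83 (SE 0.08, limma adjusted p = 0.000562), and with voom on the recovered reads by 1.00. Of 11 other aquaporins 1 was tested, Aqp11, which fell by 0.85 on the log2 scale (limma adjusted p = 0.00115).

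Ordered by level per length, Axin1 libraries had Plvap first, then Gpihbp1, Fabp5, Aqp1 and Lpl, with Cd36 and Fabp4 last and overlapping. In wild type the order was Plvap, Fabp5, Gpihbp1, Aqp1, Lpl, Cd36 and Fabp4, with no overlap between neighbours, although Gpihbp1 and Aqp1 came close, at 3.78 RPKM in the lowest library for Gpihbp1 and 3.74 RPKM in the highest for Aqp1. Gpihbp1 thus stood above Fabp5 with Axin1 overexpression and below it in wild type. For Plvap, Gpihbp1, Cd36, Fabp4 and Aqp1 the range within either group was smaller than the difference between the group means.

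**Figure D3:**
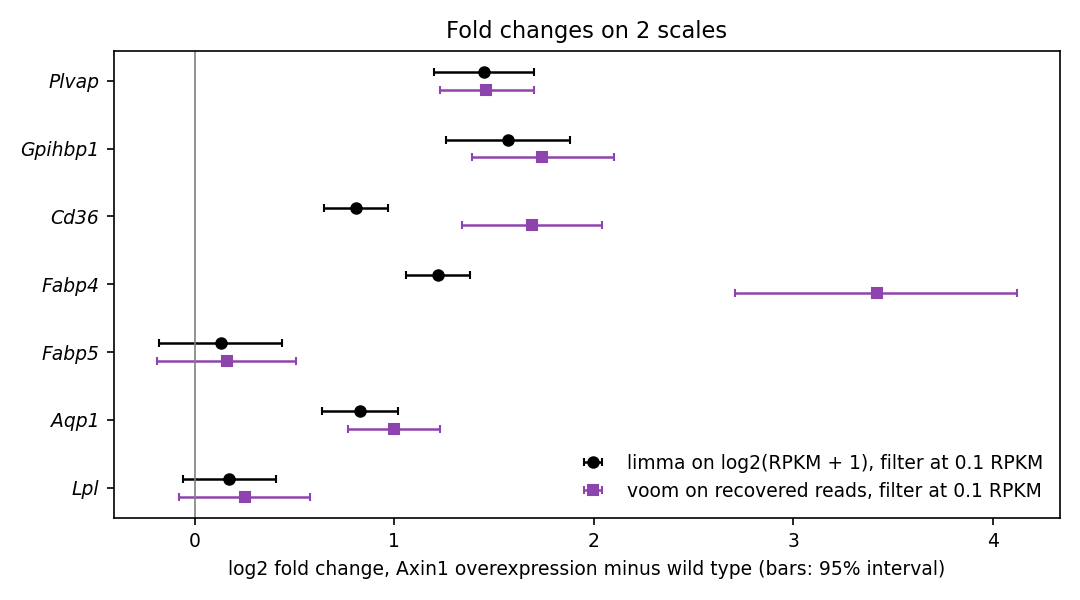
Log2 fold changes (Axin1 overexpression minus wild type) with 95% intervals for the 7 genes, by limma on log2(RPKM + 1) (circles) and by voom on recovered reads (squares), both with a filter at a mean of 0.1 RPKM so that Fabp4 is included. The scales part for the low transcripts, with 0.81 on log2(RPKM + 1) and 1.69 by voom for Cd36, and 1.22 and 3.42 for Fabp4.

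Genes that handle Lpl and lipoproteins outside the 7 did not rise. By limma 6 of the 15 tested passed, all lower with Axin1 overexpression, with a median log2 fold change of -0.19, where all tested genes had a median of 0.04. Angptl4, a secreted inhibitor of Lpl, was at 15.4, 18.4 and 20.8 RPKM in the Axin1 libraries, against 35, 29.6 and 28.8 RPKM in wild type (log2 fold change -0.75, limma adjusted p = 0.00421). Furin, a proprotein convertase that can cleave Lpl, fell by 0.64, the lysosomal acid lipase gene Lipa by 0.58 and the apolipoprotein E receptor gene Lrp8 by 0.96 on the log2 scale. The other 2, Scarb1 and Lrp1, had log2 fold changes of -0.22 and -0.49, and both calls were lost with the GC and length correction and in several fits that left out a library. Lmf1, which is needed to fold Lpl, did not pass (-0.14, adjusted p = 0.181).

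Genes for fatty acid transport and activation went both ways, with 2 of 18 tested higher, 4 lower and a median of -0.07. Of these calls 0 of the 2 higher (Acsl4 and Cpt1c) and 2 of the 4 lower (Mfsd2a and Cpt1a) held in every alternative that tested them. Mfsd2a, the brain endothelial lysolipid transporter, fell by 1.48, and Cpt1a, which admits fatty acids to mitochondria, by 0.42 on the log2 scale (limma adjusted p = 0.00017 and 0.00594). The fatty acid transport protein gene Slc27a4 did not pass (-0.08, adjusted p = 0.345). Among relatives of the Fabp carriers, 3 of 6 tested were higher and 0 lower, with a median of 0.23, and 0 of these calls held in every alternative. Fabp7, a carrier of radial glia, came to 0.58 on the log2 scale, a call that did not hold with the GC and length correction, with no filter, or without Axin1 replicate 2 or 3. The retinoid carrier Rbp7 had a log2 fold change of 0.64, lost with that correction and when libraries were thinned to equal depth. Fabp1, Fabp6, Fabp9 and Fabp12 were listed at 0 in every library.

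Factors placed upstream of capillary lipid uptake split, with 4 of 19 higher, 3 lower and a median of 0.03, and 2 of the higher and 2 of the lower calls held in every alternative. Meox2 and Tcf15, homeobox and basic helix-loop-helix factors that act together on fatty acid uptake genes in mouse heart capillaries, both rose. Meox2 was at 1.71, 1.58 and 1.29 RPKM in the Axin1 libraries, against 0.453, 0.464 and 0.601 RPKM in wild type (log2 fold change 0.74, limma adjusted p = 0.000761). Like Cd36, it reached the filter through the Axin1 group alone, and its call held in every alternative run, the lower filter included. Tcf15 was at 14.7, 15 and 14.1 RPKM in the Axin1 libraries, against 8.47, 10.9 and 7.65 RPKM in wild type (log2 fold change 0.65, limma adjusted p = 0.00602). Meox1, a relative of Meox2, went the other way, at means of 6.2 RPKM with Axin1 overexpression and 11.9 RPKM in wild type. Its log2 fold change was -0.85 (limma adjusted p = 0.00447), a call that held in every alternative. Ppard, a nuclear receptor for fatty acids, fell by 1.15 on the log2 scale (limma adjusted p = 0.000138). Its relative Pparg, named after its values were seen because it is the factor best known for inducing Fabp4 and Cd36, had 6, 6 and 5 reads in the Axin1 libraries and 4, 1 and 2 reads in wild type, too few to be tested.

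Further markers of peripheral or fenestrated capillaries were higher for 10 of 20 tested and lower for 3, with a median of 0.27. Of all genes tested, 14.4% were higher and 8.37% lower. This list was also chosen with earlier results of these data known, so its counts are not independent evidence. For these markers, 7 of the higher and 1 of the lower calls held in every alternative. On the log2(RPKM + 1) scale the largest rises among them were Esm1 (log2 fold change 1.14), a secreted proteoglycan of tip cells, and the sialomucin gene Emcn (1.05), followed by Meox2 (0.74) and by the caveolar coat gene Sdpr (0.73). By ratio of mean RPKM Meox2 stood above both, at 3.01, with 2.32 for Esm1 and 2.08 for Emcn. Car4, a carbonic anhydrase of capillary surfaces, went the other way and fell by 0.74 on the log2 scale. Its means were 0.518 RPKM with Axin1 overexpression and 1.53 RPKM in wild type. Car4 reached the filter through the wild-type group alone and Meox2 through the Axin1 group alone, so both places are partly set by it. Meox2, Tcf15 and Rbp7 were also counted in the lists before. Of 9 caveola and vesicle genes tested, 3 were higher and 1, Mfsd2a, was lower, with a median of 0.12. Of these, 0 of the 3 higher calls held in every alternative. Sdpr is not among these 9, as it was counted with the peripheral markers, and its call held in every alternative. Cav1, the main caveolin of endothelium, did not pass (0.13, adjusted p = 0.303).

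**Figure D4:**
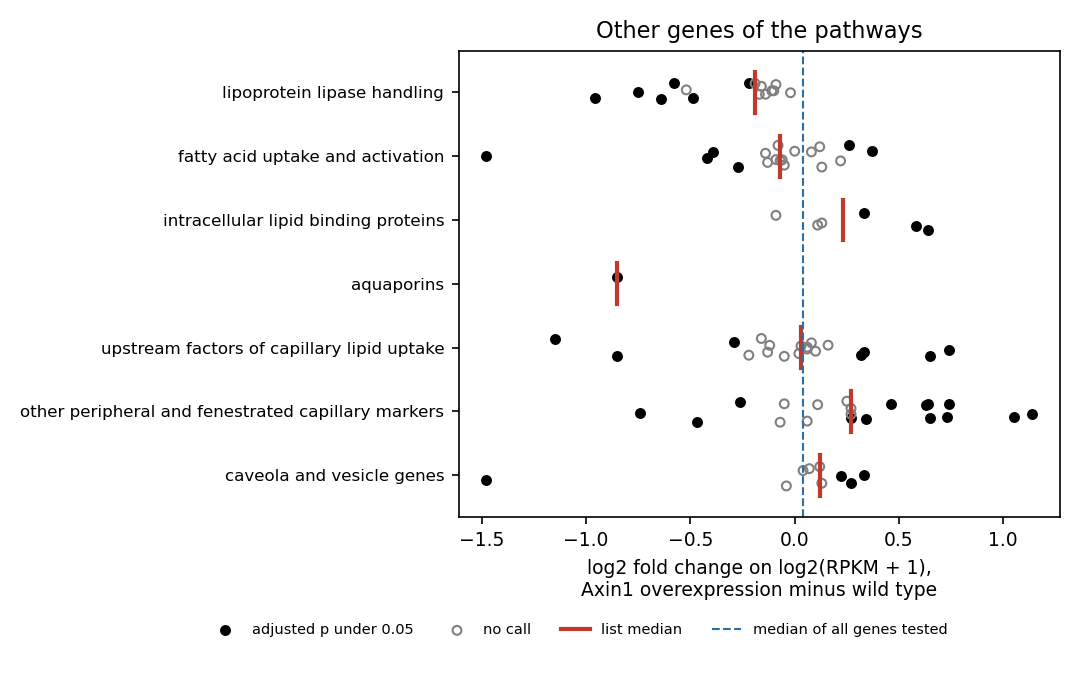
Log2 fold changes of the tested genes of each pathway list other than the 7 members (filled, limma adjusted p under 0.05; open, no call), with the list median in red and the median of all genes tested, 0.04, as a dashed line. Lipoprotein lipase handling genes lie at or left of zero, with a median of -0.19, and other peripheral capillary markers mostly right of it, with a median of 0.27.

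By the distance between centred library profiles of log2(RPKM + 1) over the 6 libraries, the genes most like Plvap were Tgfbi (root mean square distance 0.124), Axin1 itself (0.128) and Irx3 (0.133). Those nearest to Cd36 were Ifitm2 (0.048), Zcwpw1 (0.066) and Hmgn5 (0.072). Those nearest to Aqp1 were Hpgd (0.086), Tpm3 (0.087) and Gpr183 (0.094), while the nearest to Gpihbp1 lay farther off, at 0.167 for 2610507I01Rik and 0.211 for both 1810011O10Rik and S100a10. The nearest to Fabp5, Igfbpl1 (0.046), Bmp4 (0.059) and Epdr1 (0.073), and to Lpl, Mybbp1a (0.030), Cep170 (0.031) and Copa (0.032), did not pass the test either. The log2(RPKM + 1) scale compresses low values, so a near profile does not mean a like ratio. Cd36 had means of 1.69 RPKM with Axin1 overexpression and 0.532 RPKM in wild type, against 122 and 69.1 RPKM for Ifitm2.

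The libraries carried the markers of brain endothelium that the labels call for. Summed pan-endothelial markers were 3404 to 3735 RPKM with Axin1 overexpression and 3359 to 3481 RPKM in wild type, with 1 of 14 higher and 2 lower, the lower calls lost in some alternatives. Brain barrier markers were lower for 13 of 13 tested, 12 of them in every alternative, with sums of 2009 to 2327 RPKM with Axin1 overexpression against 3770 to 3998 RPKM in wild type. The mean pan-endothelial sum differed by a ratio of 1.04, against ratios of 2.75 for Plvap, 3.36 for Gpihbp1, 3.18 for Cd36 and 2.01 for Aqp1. Emcn, the 1 higher gene of that list, was also counted as a peripheral marker. It had means of 284 RPKM with Axin1 overexpression and 136 RPKM in wild type. The part of endothelial content in the ratios of the members was not tested.

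Markers of other cell types that express members were present and some moved with the genotype. Erythroid genes, beside Aqp1 and Cd36, were higher for 5 of 5 tested, with sums of 414 to 775 RPKM with Axin1 overexpression and 120 to 167 RPKM in wild type. By library the sums were 553, 775 and 414 RPKM in Axin1 replicates 1 to 3, in which Aqp1 was at 7.3, 6.08 and 7.33 RPKM and Cd36 at 1.79, 1.75 and 1.53 RPKM. Hbb-b2 gave part of these sums on few reads, 8 to 20 in the Axin1 libraries and 5 to 11 in wild type. Without it the sums were 319 to 640 RPKM with Axin1 overexpression and 95.5 to 122 RPKM in wild type. Of the 5 calls, 3 held in every alternative, beside a background of 14.4% of all genes tested that were higher. Hbb-bh1 had means of 4.02 RPKM with Axin1 overexpression and 0.566 RPKM in wild type. It reached the filter through the Axin1 group alone, so its place among the 5 is partly set by the filter. Hbb-y, the embryonic beta globin, led the list with means of 402 RPKM with Axin1 overexpression and 91.3 RPKM in wild type. Hba-a1, Hba-a2 and Hbb-b1 were listed at 0, which does not show that their RNA was absent. In Axin1 replicate 1, 16 reads came to 110 RPKM for Hbb-b2, whereas 1267 reads came to 58 RPKM for Hba-x. The RPKM of Hbb-b2 is therefore uncertain. The part of erythroid RNA in the rise of Aqp1 and Cd36 was not tested.

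Choroid plexus epithelium, which makes Aqp1, had sums of 98 to 158 RPKM with Axin1 overexpression and 150 to 203 RPKM in wild type, with 0 of 9 tested markers called. These sums overlapped, and their part in the Aqp1 level was not tested. Macrophage and microglia markers, beside Cd36, Fabp4 and Lpl, summed to 108 to 140 RPKM in Axin1 libraries and 109 to 121 RPKM in wild type, with 2 of 14 higher (Aif1 and Lyz2) and 1 lower (Laptm5). Each of these 3 calls was lost in some alternatives, and their part was not tested. All 9 adipocyte markers were below the filter, at sums of 0.0673 to 0.261 RPKM with Axin1 overexpression and 0.0775 to 0.1 RPKM in wild type, and Adig, Cfd and Cidec were listed at 0 throughout. Megakaryocyte and platelet markers, beside Cd36, summed to 13.7 to 16.5 RPKM in Axin1 libraries and 14.2 to 18.5 RPKM in wild type, with 0 of 3 tested higher and 1 lower, a call lost in some alternatives. Neural progenitor markers, beside Fabp5, were higher for 9 of 14, and 5 of these calls held in every alternative. Their sums were 2304 to 2398 RPKM with Axin1 overexpression and 1779 to 1948 RPKM in wild type. Most of each sum came from Vim, at means of 1469 RPKM with Axin1 overexpression and 1167 RPKM in wild type. Nes, which was not called, came next at 431 and 373 RPKM. Whether this Vim and Nes RNA came from progenitors or endothelium was not tested. Neuron markers, beside Fabp5 and Lpl, were higher for 5 of 14 tested, of which 1 held in every alternative. The parts of these cells in the Fabp5 and Lpl levels were not tested. Of other vessel-associated cells, pericyte and smooth muscle markers were lower for 4 of 9, meningeal fibroblast markers for 5 of 12 and lymphatic markers for 2 of 5, with 0 higher in these lists. Only 3 of the meningeal calls, and 0 of the pericyte and lymphatic calls, held in every alternative. The 2 lymphatic calls were Reln and Flt4, and the median log2 fold change of that list was 0.14. Lyve1 did not pass (0.27, limma adjusted p = 0.155) and Prox1 overlapped between the groups. Which cells gave the Reln and Flt4 RNA was not tested.

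**Figure D5:**
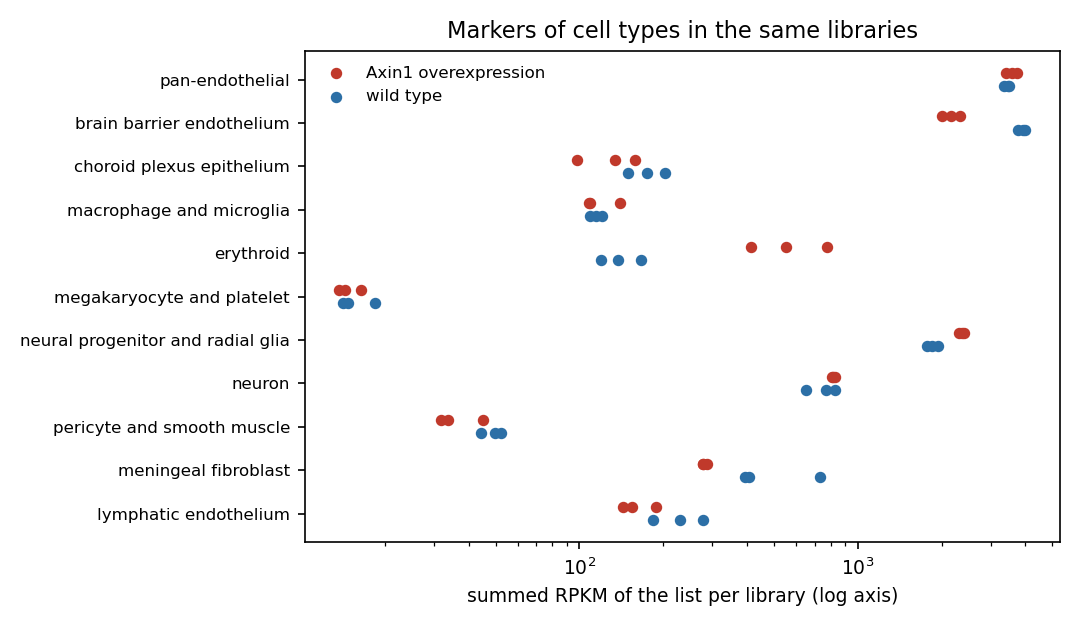
Summed RPKM of marker lists in each library (log axis), Axin1 overexpression in red above wild type in blue. Pan-endothelial sums overlap between groups, brain barrier sums are lower with Axin1 overexpression (2009 to 2327 against 3770 to 3998 RPKM), and erythroid sums are higher (414 to 775 against 120 to 167 RPKM).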

How the data were processed

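Polyadenylated RNA of 6 libraries was sequenced after a TruSeq RNA v2 preparation, per the labels' protocols. Bowtie, DESeq and build mm9 are named without versions, per the submitters' processing notes; no counter is named. The authors deposited RPKM values. The unit has no header and was settled from the values: implied transcript lengths were at a median ratio of 0.994 to reference lengths (14642 genes). The authors also deposited group means of normalized counts (signal), their ratio as a fold, and p-values with adjusted values, per the file headers. The headers do not name the groups. They were read from 365 genes listed at 0 in every wild-type library, for which just the mean taken as Axin1 was above 0, and from 796 genes of the opposite kind.

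RPKM and group means together gave back whole reads. Of values above 0, 100.0% came out whole within 0.05 reads for genes with 1 transcript, 26.7% for genes with several and 84.2% over all. No replicates agreed within sampling noise (chi-square over its degrees of freedom, 7.59 to 45.5). log2(RPKM + 1) of the 12493 genes averaging 1 RPKM or more was fitted by group alone with limma 3.58.1 (R 4.3.3), with Benjamini-Hochberg adjustment, two-sided, and a threshold of 0.05. The step was tested on simulated data. Python 3.11.15, pandas 2.3.3, numpy 2.4.6, scipy 1.17.1 and matplotlib 3.10.9 did the rest.

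Members and gene lists were chosen with earlier results of these data known. The 7 members were described in full. List genes past the threshold could be named, or else the 3 most abundant. Those named outside this were chosen after their values were seen. The 3 genes of most similar pattern were named for each tested member. Sequences came from RefSeq, whose promoter table matched Cd36 and Aqp1, and no coordinates were converted between builds. Alternatives were a replicate block, pseudocounts of 0.1 and 10, other filters, voom, 2 rescalings, trend and robust variances, thinning to 21077809 reads, a correction for GC content and length, and leaving out each library. Lengths and GC content were known for 99% of tested genes.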

Additional observations from a re-analysis of the deposited data

How the results depend on the processing

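The calls of Plvap, Gpihbp1, Cd36 and Aqp1 kept their direction and side of the threshold under the 18 alternatives run, with log2 fold changes of 1.35 to 1.54, 0.82 to 1.75, 0.15 to 1.69 and 0.33 to 1 and highest adjusted p of 0.00565, 0.00716, 0.00993 and 0.00716. The low ends of Gpihbp1, Cd36 and Aqp1 came from the pseudocount of 10, which compresses low genes by construction. Lpl was not called under any alternative (0.05 to 0.27). Fabp5 was not called either, and its log2 fold change turned to -0.07 with the GC and length correction and to -0.03 without wild-type replicate 3 (range without each library -0.03 to 0.26); the cause was not tested. Fabp4 entered the test where the filter allowed it, with 1.22 with no filter (adjusted p = 0.00176), 1.22 with a filter at 0.1 RPKM (7.24e-05) and 3.42 with voom at that filter, a setting added after seeing the data (0.000166). It had no fit without single libraries, as those kept to the genes tested in the report. The count of genes called was 2846, or 1822 with the GC and length correction, and 1054 to 2318 without each library, lowest without Axin1 replicate 2. Higher genes numbered 1800, or 980 with that correction, 1117 with the upper quartile and 589 to 1492 without each library. Lower genes numbered 1046, or 1392 with the median of ratios (1248 higher), 1466 with the upper quartile, and 465 to 933 without each library, so that lower genes outnumbered higher ones under both rescalings. As a hint only, each library's deviations correlated best with those of its own replicate number (r = 0.08, 0.13 and 0.06), which does not make the numbers pairs. The replicate block left the 4 member calls in place, with 2675 genes called. Depth limits Fabp4, with 5 to 6 reads per wild-type library.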
